A study of Saccharomyces cerevisiae with 6 samples.

Results

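Many yeast genes have more than one unstable or stable non-coding transcript annotated on their opposite strand, and the shorter of these are described here. For each gene the antisense transcript of greatest length was set aside, and every transcript that was the longest for no gene was taken, without use of its counts. This left 655 shorter antisense transcripts of 2169 distinct antisense transcripts, and the other 1514 were the longest opposite at least 1 gene. The shorter transcripts lay opposite 581 genes in 690 combinations of transcript and gene. Of these genes, 488 had 1 shorter transcript, 80 had 2, 10 had 3 and 3 had 4.

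Nascent RNA was measured by TT-seq, in which cells are briefly fed 4-thiouracil and the labelled RNA is purified and sequenced, in 3 libraries of a *dbp2Δ* strain and 3 of a wild-type strain of *Saccharomyces cerevisiae*, described as biological replicates. The *dbp2Δ* strain was MATα with *DBP2* replaced by *KanR*, the deletions *ura3Δ0*, *leu2Δ0* and *his3Δ0*, and intact *TRP1*, *MET* and *LYS*, and the wild-type strain was MATa *his3Δ1 leu2Δ0 met15Δ0 ura3Δ0*. Both carried the empty vector pRS426, grew at 30 °C in medium without uracil and with 2% glucose to an OD600 of 0.5, and were labelled for 10 min with 0.32 mg/ml 4-thiouracil. The comparison asks how loss of Dbp2 alters transcription on the strand opposite genes.

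Dbp2 is a DEAD-box RNA helicase that acts on RNA while it is being made. In budding yeast, antisense RNAs are grouped as cryptic unstable transcripts, which the nuclear exosome removes, Xrn1-sensitive unstable transcripts, which the cytoplasmic exonuclease Xrn1 removes, and stable unannotated transcripts, which can be seen in wild-type cells. Many cryptic transcripts are ended by the Nrd1-Nab3-Sen1 complex, whose RNA-binding subunits Nrd1 and Nab3 recognise short motifs, GUAA and UCUU, in the nascent RNA, and are then degraded by the nuclear exosome.

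The ends of the transcripts on which the results below turn are shown here, because a shorter transcript differs from the longest one beside it in where it begins or ends. Each line holds the last 30 bases of the transcript on its own strand, 5′ to 3′, from the RefSeq sequence of build R64, and capitals mark GTAA or TCTT, the DNA forms of both motifs. The shorter transcripts end at chrXIII:24685-24714 and chrXIII:25636-25665 (plus strand) opposite *PHO84*, at chrVII:591099-591128 (minus strand) opposite *SCM4*, at chrVIII:56600-56629 (minus strand) opposite *RIM4*, at chrIV:543216-543245 (plus strand) opposite *NRG1*, at chrIV:615245-615274 and chrIV:616797-616826 (plus strand) opposite *AFR1* and at chrXII:397323-397352 (plus strand) opposite *APC2*. The longest transcripts end at chrXIII:26075-26104 opposite *PHO84*, chrVII:590980-591009 opposite *SCM4* and chrIV:616890-616919 opposite *AFR1*.
PHO84, first shorter: cagaataacagcactgtttaaactcaaccc
PHO84, second shorter: gtcatcgatggactccaaagccaaTCTTct
PHO84, longest: aataagcaggcaaaacgggagaagagggat
SCM4, shorter: caatagattcgagtatggGTAAacgaagag
SCM4, longest: gcgatgcataagatacttggattctaagat
RIM4, shorter: gataatattttttTCTTTCTTTCTTCTTga
NRG1, shorter: gagaattagttagaactggtagtagcgtct
AFR1, shorter, over the gene end: aatagTCTTttTCTTtctatcaaataggcc
AFR1, shorter, over the gene start: ctgaacatatacacactataccgatagaaa
AFR1, longest: gtgccgttgtttttattttttctcgTCTTt
APC2, shorter: ggtttagaatgtattTCTTgaaatcagaca
Only the transcript's own strand was searched, and the 2 motifs cannot overlap one another. GTAA was in the last 30 bases of 13.6% of the shorter transcripts, 14.2% of the longest and 14.0% of all antisense transcripts, and TCTT in 22.7%, 21.9% and 22.1%. In the last 100 bases GTAA was in 36.6% of the shorter and 41.7% of the longest transcripts, and TCTT in 58.5% and 55.0%. A match is a match of letters only.

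The shorter transcripts had a median length of 609 bp, from 41 to 3681 bp, against 704 bp, from 41 to 5195 bp, for the longest. Many were close in length to the transcript beside them: the median was 68.6% of the longest, and in 69 of the 690 combinations it was at least 95%. In 293 combinations the shorter transcript lay wholly within the longest, in 274 it overlapped it in part (median overlap 457.5 bp), and in 123 the pair shared no base (median gap 303 bp, from 6 to 2477 bp). Relative to the gene, 214 of the 675 combinations that overlapped an annotated gene lay inside it, 192 crossed its end, 162 crossed its start and 107 ran past both ends. Lying inside the gene took 31.7% of the shorter transcripts' combinations, against 21.4% of those of the longest, and running past both ends 15.9%, against 20.6%. The sets were split by length, which itself bears on these shares, and positions were not compared at equal length. GC content was 39.2% in both sets. There were 334 shorter transcripts on the plus strand, and 107 overlapped another shorter transcript.

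Nested intervals share reads. In all 293 combinations with the shorter transcript inside the longest, the longest had at least as many counts in each of the 6 libraries, so the pair is not 2 separate measurements. How strand was handled when the reads were counted is not stated in the sources at hand. Of the 217 combinations with the shorter transcript wholly within its gene, which include transcripts reaching the gene's end exactly, the gene had at least as many counts in all 6 libraries for 166, and of the 107 with the whole gene inside the transcript, the transcript had at least as many for 107. How far reads of one strand entered the counts of the other was not tested.

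The libraries held 6968216 to 8659542 gene counts in *dbp2Δ* and 11177517 to 13134963 in the wild-type. Shorter transcripts took 210999 to 256477 counts in *dbp2Δ* and 300971 to 459153 in the wild-type, which was 23.9 to 24.0% and 22.7 to 25.8% of the antisense counts. Their median coefficient of variation was 9.98% among *dbp2Δ* libraries and 15.9% among wild-type libraries. Wild-type library 3 stood apart: of the 617 shorter transcripts that averaged 50 or more normalized counts, 48 had at least 2 times the mean of the other wild-type libraries there, against 1 and 5 in wild-type libraries 1 and 2 and 0 to 1 in the *dbp2Δ* libraries. *DBP2* itself had raw counts of 0, 0 and 2 in *dbp2Δ* and 10976, 11136 and 11213 in the wild-type. *MET17*, the *met15* locus, had 2029, 1505 and 2030 raw counts in *dbp2Δ* and 0 in each wild-type library. *LYS2* had 4477, 4710 and 5894 in *dbp2Δ* and 1, 0 and 1 in the wild-type, whose listed genotype names no *lys2* allele. *STE2*, the receptor of MATa cells, had 134, 167 and 168 in *dbp2Δ* and 11313, 11945 and 15997 in the wild-type. Mating type, markers and *DBP2* differ together, so their parts in any difference below cannot be told apart. In bulk cultures, fewer cells making a transcript and less of it per cell cannot be told apart either.

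In *dbp2Δ*, more shorter transcripts were higher than lower. Of 654 tested with edgeR's quasi-likelihood test, 170 rose (26.0%) and 99 fell (15.1%) at a Benjamini-Hochberg adjusted p under 0.05, and 385 did not pass. Over all 2167 antisense transcripts tested the called share was 42.1%, with 23.4% higher and 18.7% lower, so the shorter transcripts were called about as often as antisense transcripts at large. The median log2 fold change was 0.14, with an interquartile range of −0.35 to 0.54, and among the longest transcripts, of which 338 of 1513 rose and 306 fell, it was 0.02. Other library scalings gave medians of 0.08 to 0.21 for the shorter transcripts. The strains did not overlap for 225 shorter transcripts that were higher and 130 that were lower, against 31.4% and 24.4% of all antisense transcripts. Changes of at least 2-fold were called for 54 higher and 28 lower of the 654. Over all 2167 antisense transcripts tested these were 178 and 111, which are similar shares. Counts of calls fell when a *dbp2Δ* library was left out, to 110, 108 and 120 higher and 60, 56 and 61 lower without library 1, 2 and 3, and 144 of the 269 calls held in all 6 such fits.

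The highest rise was opposite *NRG1*, which encodes a repressor of genes that glucose keeps off. This 697-bp transcript, at chrIV:542549-543245, had normalized counts of 2106, 2107 and 1735 in *dbp2Δ* and 107, 116 and 186 in the wild-type. All *dbp2Δ* libraries were far above all wild-type libraries, a log2 fold change of 3.86 (SE 0.24, adjusted p = 8.9e-05). The *NRG1* gene had 2495, 2387 and 1997 in *dbp2Δ* and 68.2, 81.4 and 179.7 in the wild-type, a log2 fold change of 4.38, and the longest antisense transcript rose by 3.26. The transcript opposite *RIM4*, a meiotic RNA-binding protein, had 1099.7, 1498 and 1581 in *dbp2Δ* and 402, 333 and 435 in the wild-type (log2 fold change 1.84, SE 0.18, adjusted p = 6.85e-04). Opposite *JEN1*, the lactate and pyruvate permease, the counts were 539, 617 and 636 in *dbp2Δ* and 139, 179 and 261 in the wild-type (1.63, SE 0.22, adjusted p = 0.00177). Neither pair of strains overlapped.

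Opposite *SCM4* the antisense strand moved and the gene did not pass the test. The 529-bp transcript at chrVII:591099-591627 had 629, 573 and 561 in *dbp2Δ* and 179, 207 and 202 in the wild-type, and the strains were well apart (log2 fold change 1.58, SE 0.12, adjusted p = 2.13e-04). The *SCM4* gene had 231, 179 and 226 in *dbp2Δ* and 222, 250.3 and 163 in the wild-type, with the strains overlapping (0.00, SE 0.20, adjusted p = 0.989). The transcript opposite *PRY1*, which encodes a sterol-binding secreted protein, had 3759, 3423 and 4470.3 in *dbp2Δ* and 1089, 1098 and 1838 in the wild-type (1.53, SE 0.25, adjusted p = 0.00305). *MEI4*, which is needed for meiotic recombination, had a shorter transcript 423 bp away from its longest one, with 129, 157 and 115 in *dbp2Δ* and 48.4, 43.7 and 46.7 in the wild-type (1.53, SE 0.20, adjusted p = 0.00153). In both cases every *dbp2Δ* library was above every wild-type library, as the condition for naming them required. Among transcripts with a mean of at least 50 and no overlap of the strains, the 8 largest rises also held those opposite *LOH1* (1.81, SE 0.25) and *ISF1* (1.52, SE 0.26).

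**Figure D1:**
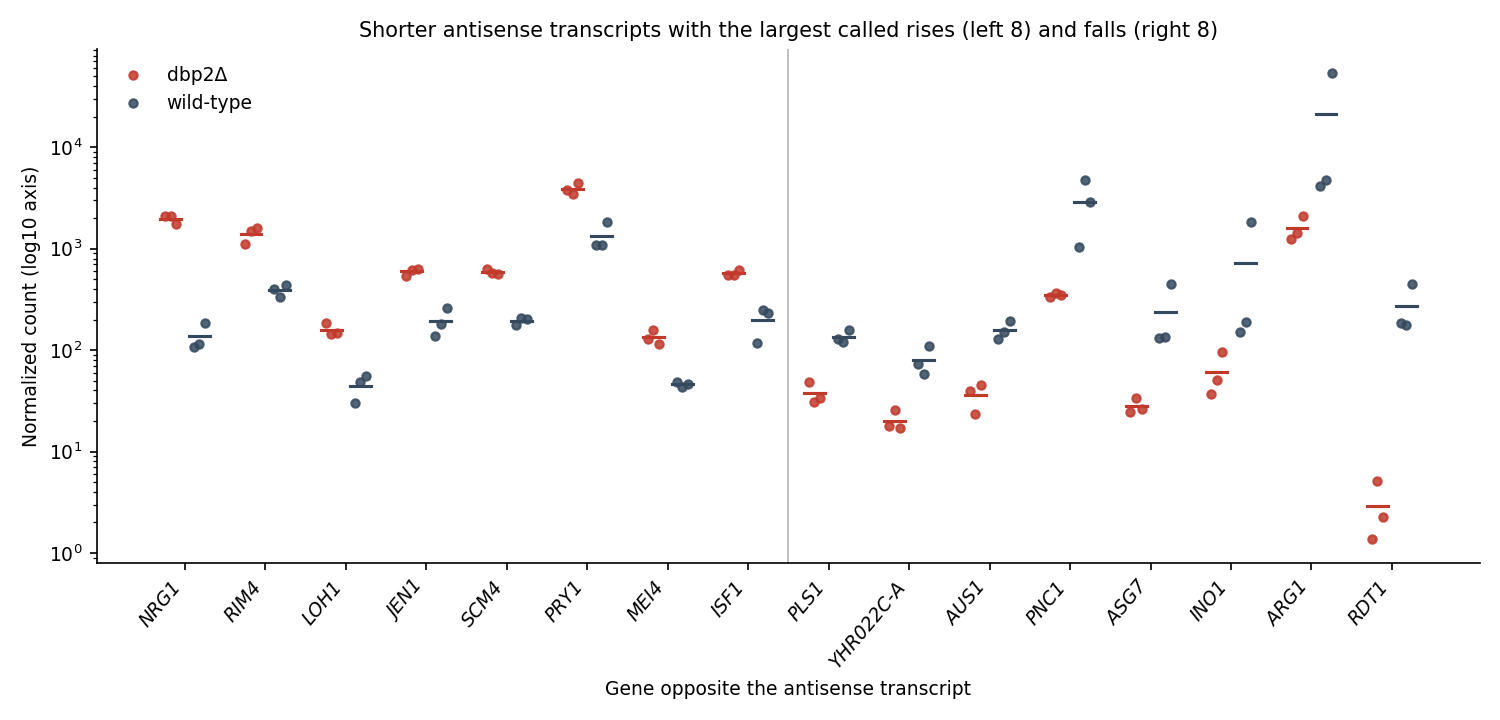
Normalized counts (log10 axis) of the 8 shorter antisense transcripts with the largest called rises and the 8 with the largest called falls, among those with a mean of at least 50 and no overlap of the strains, named by the gene opposite. Each point is a library, *dbp2Δ* in red left of wild-type in dark blue, and bars are means of 3; for *ARG1* and *INO1* the third wild-type library (54404 and 1849) lies far above the other wild-type libraries.

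The largest fall was larger in size than the largest rise. Opposite *RDT1*, a small open reading frame on chromosome III, the transcript had 1.36, 5.16 and 2.27 normalized counts in *dbp2Δ* (raw counts 1, 4 and 2) and 183, 177 and 449 in the wild-type, a log2 fold change of −6.47 (SE 0.63, adjusted p = 6.03e-04). It was all but absent from *dbp2Δ* libraries. The strains also differ in mating type, and the part of mating type in this fall was not tested. Opposite *PNC1*, a nicotinamidase, the counts were 338, 364 and 353 in *dbp2Δ* and 1028, 4704 and 2878 in the wild-type (−3.03, SE 0.49, adjusted p = 0.00307). The *dbp2Δ* libraries were close together and all lower, and the wild-type libraries were spread. *AUS1*, a sterol importer of anaerobic growth, had a shorter transcript with 39.5, 23.2 and 45.4 in *dbp2Δ* and 129, 151 and 192 in the wild-type (−2.12, SE 0.28, adjusted p = 0.00168). Transcripts opposite *YHR022C-A* (−1.99, SE 0.33) and *PLS1* (−1.84, SE 0.24) fell as well.

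Several falls lay where a strain difference or 1 library moved with them. *ASG7* is a gene expressed in MATa cells, and the gene itself had raw counts of 5, 5 and 4 in *dbp2Δ* and 132, 119 and 564 in the wild-type. Its shorter antisense transcript had normalized counts of 24.5, 33.5 and 26.1 in *dbp2Δ* and 131, 135 and 451 in the wild-type (−3.09, SE 0.56, adjusted p = 0.00498). Opposite *ARG1*, which encodes the argininosuccinate synthase of arginine synthesis, the counts were 1256, 1422 and 2114 in *dbp2Δ* and 4117, 4731 and 54404 in the wild-type (−3.72, SE 1.01, adjusted p = 0.0209). The third wild-type library alone was more than 10 times the others and gave this transcript 15.2% of all counts of shorter transcripts there. Leaving out 1 library gave −4.21 to −1.47, and the call held in 3 of 6 such fits. Opposite *INO1*, the first enzyme of inositol synthesis, 36.7, 50.3 and 95.4 in *dbp2Δ* stood against 151, 188 and 1849 in the wild-type (−3.57, SE 1.02, adjusted p = 0.025; −4.07 to −1.46 without 1 library, 3 of 6 calls held). The *HIS3* gene, listed as *his3Δ0* in *dbp2Δ* and *his3Δ1* in the wild-type, had raw counts of 327, 302 and 307 in *dbp2Δ*, which go against a full deletion, and 632, 841 and 2042 in the wild-type. The transcript opposite it had 704, 589.6 and 602 in *dbp2Δ* and 801, 1113 and 2358 in the wild-type (−1.17, SE 0.36, adjusted p = 0.0328), a call held in 3 of 6 fits.

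Among genes of galactose use, *GAL1*, the galactokinase, had a shorter antisense transcript with 253, 289 and 270.4 in *dbp2Δ* and 179, 142 and 137 in the wild-type. Every *dbp2Δ* library was higher (log2 fold change 0.83, SE 0.15, adjusted p = 0.00486), and the call held in all 6 fits without 1 library. Both shorter transcripts opposite *GAL4*, the activator of these genes, rose, by 0.65 (SE 0.13) and 0.64 (SE 0.15). These overlap the annotated non-coding gene *YNCP0002W* on their own strand. In all, 12 shorter transcripts overlapped an annotated gene on their own strand, and 5 of them rose and none fell. Over all antisense transcripts tested, 23.4% rose and 18.7% fell, and 12 is a small number. Besides those opposite *GAL4*, 2 of the 5 lay opposite *ZIP2*, a meiotic protein, on the annotated non-coding gene *RME3*. These rose by 1.36 (SE 0.19) and 1.23 (SE 0.23). The other lay opposite *YML122C* on the non-coding gene *YNCM0001W* (0.65, SE 0.17), so the 5 came from only these loci. Reads of the annotated gene and of the antisense transcript cannot be told apart there.

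The shorter transcripts with the most counts per kb were the 1313-bp one opposite *ARG1* described above, at means of 1217 in *dbp2Δ* and 16058 in the wild-type per kb, and those opposite *DIP5*, *SAM3* and *DSE2*. The 276-bp transcript opposite *DIP5*, an amino acid permease, had 3249, 3193 and 3216 in *dbp2Δ* and 1311, 1197 and 1558 in the wild-type, or mean levels of 11664 and 4911 normalized counts per kb. It rose by 1.25 on the log2 scale (SE 0.16, adjusted p = 0.00138). The 137-bp transcript opposite *SAM3*, the S-adenosylmethionine permease, had 781, 826 and 993 in *dbp2Δ* and 1997, 1799 and 1120.4 in the wild-type, or 6326 and 11961 per kb, and fell (−0.92, SE 0.23, adjusted p = 0.0147). Strains overlapped in neither *DIP5* nor *SAM3*. Opposite *DSE2*, a daughter-cell wall hydrolase, 3167, 2917 and 3486 in *dbp2Δ* overlapped 2161, 2063 and 2959.7 in the wild-type (0.41, adjusted p = 0.111). The longest of the shorter transcripts, 3681 bp opposite *YDR222W* and *CRF1*, had 2273, 2346 and 2153 in *dbp2Δ* and 1749, 2214 and 1230.1 in the wild-type (0.38, adjusted p = 0.186). The shortest, 41 bp opposite *PCH2*, had raw counts of 7, 5 and 10 in *dbp2Δ* and 0, 0 and 6 in the wild-type and was too low to be tested.

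Calls varied with length. In the lowest length quartile of the shorter transcripts (at most 386.5 bp) 29 of 164 rose and 26 fell, with a median log2 fold change of 0.05, and in the highest (at least 1070.25 bp) 66 of 164 rose (40.2%) and 14 fell (8.54%), with a median of 0.36. Longest transcripts past the same length bounds gave 40 of 294 higher and 65 lower (median −0.07) at the short end and 148 of 465 higher and 66 lower (median 0.17) at the long end. In both sets the share called higher was larger at the long end. Scaling by other library factors moved the median of the lowest quartile between −0.01 and 0.13, and that of the highest between 0.31 and 0.44. Depth moved with length: the median of the mean normalized counts was 140.3 in *dbp2Δ* and 153 in the wild-type in the lowest quartile, and 537 in *dbp2Δ* and 397 in the wild-type in the highest, and its part in the calls was not tested. Transcripts running past both ends of their gene had 33 of 103 higher and 10 lower, those inside it 54 of 214 and 27, those over its end 47 of 191 and 31, and those over its start 41 of 162 and 35. For the longest transcripts these were, in the same order, 80 of 312 and 52, 75 of 346 and 66, 94 of 542 and 120, and 102 of 393 and 85. With GTAA in the last 100 bases 90 of 239 were called (37.7%) and without it 178 of 414 (43.0%), and with TCTT 157 of 382 (41.1%) and without it 111 of 271 (41.0%).

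**Figure D2:**
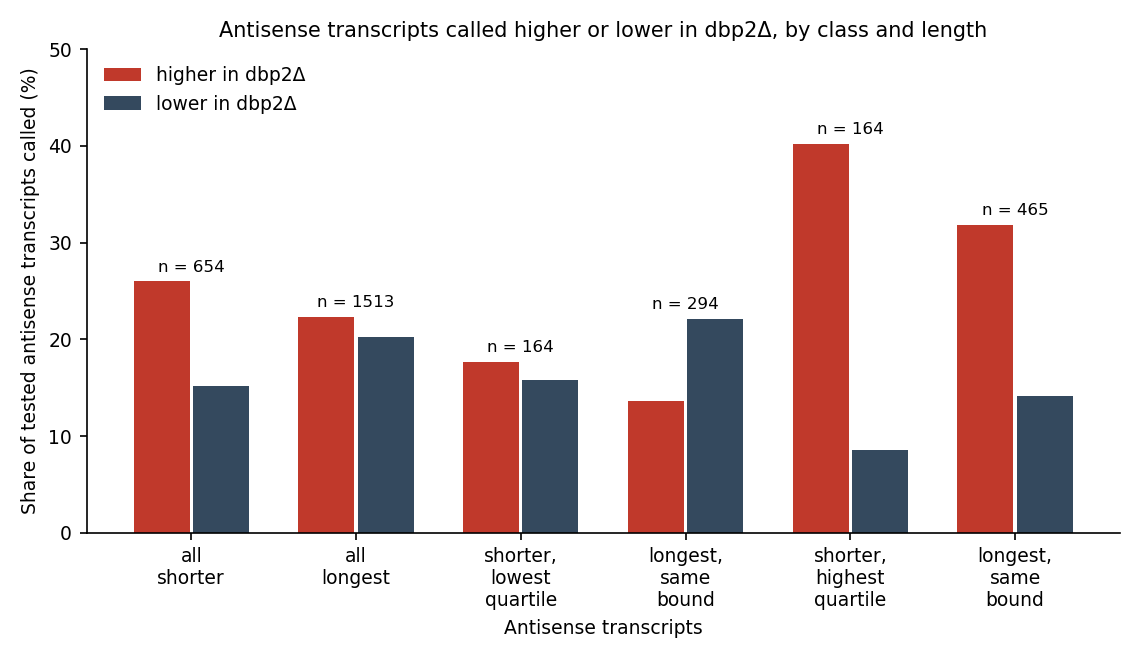
Share of tested antisense transcripts called higher (red) or lower (dark blue) in *dbp2Δ*, in percent, for all shorter and all longest transcripts, and for the lowest and highest length quartile of the shorter transcripts beside longest transcripts past the same length bounds; n is the number tested. In the highest quartile 40.2% of the shorter transcripts were higher and 8.54% lower.

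Whether a shorter transcript moved with the longest one opposite the same gene was asked next. Their log2 fold changes lay close together: over 689 tested combinations Pearson's r was 0.92, over 122 combinations with no shared base 0.76, and over 43 of these at least 500 bp apart 0.72. The points share libraries, genes and, where transcripts overlap, reads. Both transcripts were called in 242 combinations, 149 higher and 93 lower, and in none were they called in opposite directions. Tested as an interaction of transcript and strain, the ratio of shorter to longest changed in 24 of 689 combinations (3.48%), 12 higher (1.74%) and 12 lower (1.74%). Of the 122 combinations with no shared base, 3 were higher and 3 lower (4.92%), and more were called when these were fitted alone. The median size of the log2 change in ratio was 0.04 within, 0.07 for partial overlap and 0.23 apart. Without *dbp2Δ* library 1, 2 or 3, or wild-type library 2, at most 1 ratio was higher and 3 lower. The call that held in all 6 fits without 1 library was that of *YBR062C*. Per kb, the shorter transcript had the higher mean level in 70.1% of combinations in *dbp2Δ* and 68.3% in the wild-type. These shares were 79.9% and 79.5% where it lay within the longest, and 56.1% and 52.8% where no base was shared. Over each whole set, the median level per kb was lower for the shorter transcripts. It was 416 in *dbp2Δ* and 403 in the wild-type, against 468 and 466 for the longest.

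**Figure D3:**
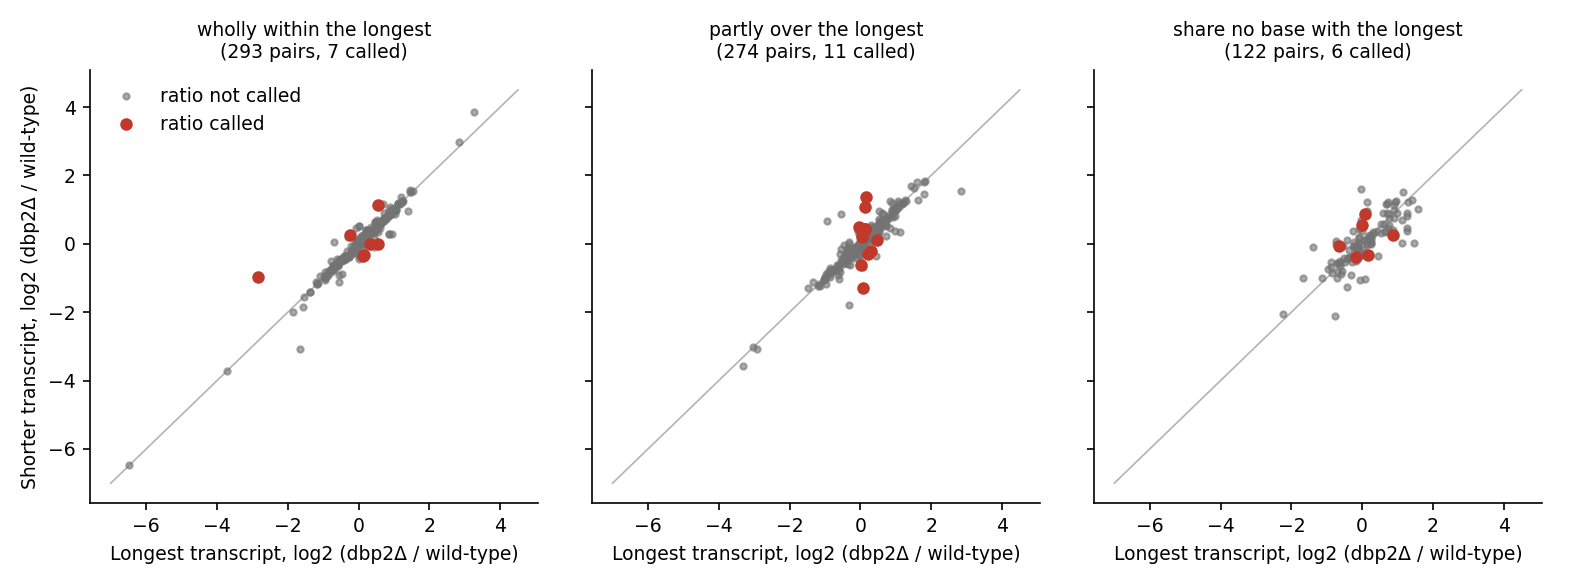
Log2 fold change (*dbp2Δ* over wild-type) of the shorter antisense transcript against that of the longest opposite the same gene, in 3 panels by how they lie to one another; the line marks equal change and red points have a called change in ratio. Points scatter more widely about the line where the pair shares no base (r = 0.76) than over all combinations (r = 0.92).

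Opposite *YBR062C*, which encodes a RING-finger protein, the shorter transcript had 256, 262 and 232 in *dbp2Δ* and 314, 340.3 and 299.5 in the wild-type, lower in every *dbp2Δ* library (log2 fold change −0.35, SE 0.12, adjusted p = 0.0434). That call of the transcript's level held in 1 of 6 fits without 1 library. The longest had a log2 fold change of 0.12, and the ratio changed by −0.47 (SE 0.020, adjusted p = 0.00166). The ratio fit treats both transcripts as separately counted, so this SE may not give the real precision. Opposite *AFR1*, which acts in the pheromone response, a pair of shorter transcripts lay within 1 longest transcript. The one over the gene's end, chrIV:614275-615274, had 514, 415 and 466 in *dbp2Δ* and 152, 275 and 204 in the wild-type, with no overlap (1.14, SE 0.21, adjusted p = 0.00537). The one over the gene's start, chrIV:616058-616826, had 275, 297 and 253 in *dbp2Δ* and 212, 360.0 and 264 in the wild-type, fully overlapping (−0.02, SE 0.20, adjusted p = 0.948). Against the longest transcript the ratio rose by 0.60 (SE 0.062, adjusted p = 0.0155) for the first and was −0.57 (SE 0.086, adjusted p = 0.0407) for the other. These calls held in 2 and 1 of 6 fits without 1 library. The *AFR1* gene rose by 1.15 (SE 0.33, adjusted p = 0.0282).

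*APC2*, a subunit of the anaphase-promoting complex, had 3 shorter transcripts in a row, all inside the gene. The one nearest the gene's start, chrXII:396920-397352, had 203, 205 and 194 in *dbp2Δ* and 109.7, 99.4 and 117 in the wild-type and rose by 0.88 (SE 0.14, adjusted p = 0.00305). The middle one, chrXII:396416-396920, had 178, 204 and 189 in *dbp2Δ* and 131, 134 and 138 in the wild-type and rose by 0.50 (SE 0.14, adjusted p = 0.0201). The one nearest the gene's end, chrXII:395800-396416, had 211, 231 and 245 in *dbp2Δ* and 254, 215 and 223 in the wild-type, which overlapped (−0.01, SE 0.13, adjusted p = 0.958). The longest transcript, which holds the last of these and is apart from the first by 162 bp, had a log2 fold change of 0.08, and the ratio of the first to it rose by 0.80 (SE 0.095, adjusted p = 0.0223), a call held in 1 of 6 fits. Fitted with only the pairs sharing no base, this ratio had an SE of 0.16. The *APC2* gene rose by 0.69 (SE 0.11).

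Other shorter transcripts whose ratio to the longest rose lay opposite *CIN2*, *ZIP2* and *MTH1*. *CIN2*, a factor for tubulin folding, had a shorter transcript with 649, 635 and 611 in *dbp2Δ* and 1279.8, 1719 and 708 in the wild-type (−0.97, SE 0.28, adjusted p = 0.0279), while the longest, which also lies opposite the chaperone gene *HSP82*, had 987, 879 and 897 in *dbp2Δ* and 7523, 10111 and 2357 in the wild-type (−2.85). Both fell, and the ratio was 1.78 higher on the log2 scale (SE 0.28, adjusted p = 0.0414). The *ZIP2* transcript on *RME3* had 442, 468 and 354 in *dbp2Δ* and 136, 149 and 206 in the wild-type, with a longest transcript at 0.15 and a ratio of 1.20 (SE 0.15, adjusted p = 0.0286). Opposite *MTH1*, a regulator of glucose transporter genes, 1304, 1166 and 1149.7 in *dbp2Δ* stood against 249.6, 791 and 676 in the wild-type (1.08, SE 0.36, adjusted p = 0.0446), with the longest at 0.12 and a ratio of 0.99 (SE 0.14, adjusted p = 0.0345). Lower ratios were called opposite *USV1* (−0.66), *SCC4* (−0.61), *RAT1*, the nuclear exonuclease gene (−0.51), and *MTR2*, an mRNA export factor gene (−0.51). Without 1 library, the calls opposite *CIN2*, *ZIP2* and *MTH1* held in 1, 2 and 1 of 6 fits, and those opposite *USV1*, *SCC4*, *RAT1* and *MTR2* in 1, 0, 2 and 0.

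**Figure D4:**
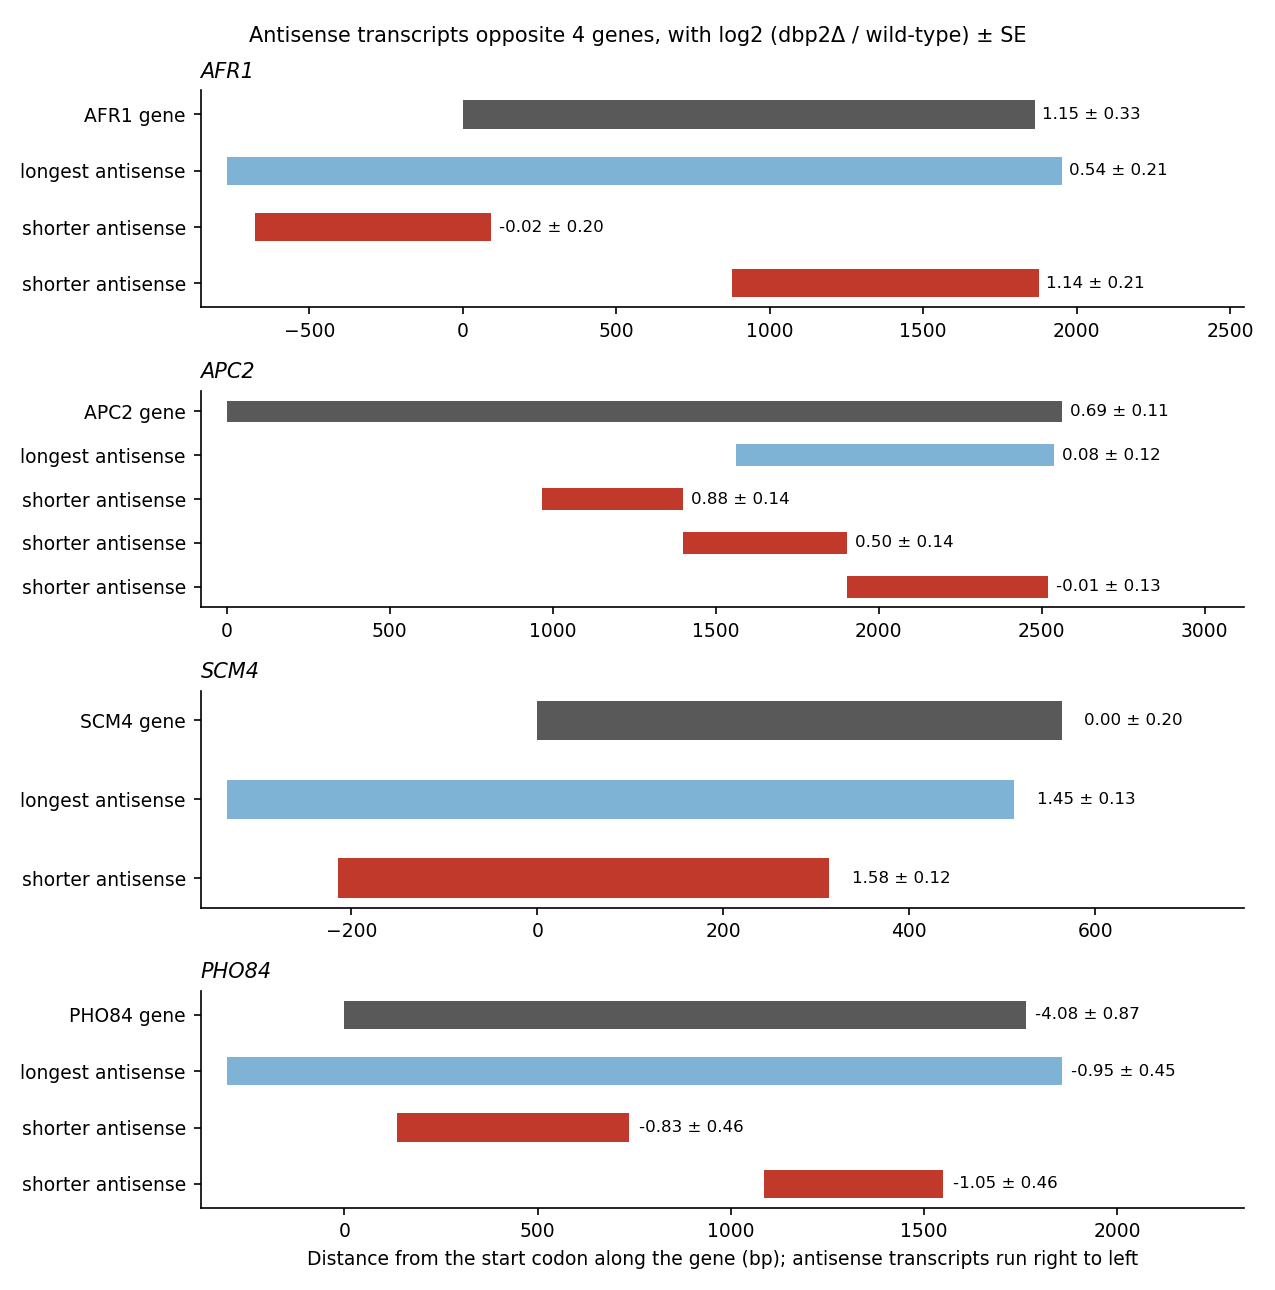
Maps to scale of the antisense transcripts opposite *AFR1*, *APC2*, *SCM4* and *PHO84*: the gene (grey), the longest (blue) and the shorter (red) antisense transcripts by distance in bp from the gene's start codon, with the log2 fold change (*dbp2Δ* over wild-type) ± SE printed at the right of each. The shorter transcripts of *AFR1* (1.14 and −0.02) and of *APC2* (0.88, 0.50 and −0.01) differ along the gene.

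Among 92 genes with at least 2 tested shorter transcripts, the median range of their log2 fold changes was 0.16. All were called the same way in 26 genes, none was called in 38, some but not all in 28, and in 0 genes were any called in opposite directions. The genes with 4 shorter transcripts were *SHE9*, a mitochondrial inner membrane protein, *YOR019W* and *LGE1*, which acts in histone H2B ubiquitylation. At *SHE9* the log2 fold changes were 0.21, 0.17, 0.31 and 0.24 and at *LGE1* −0.17, −0.15, −0.39 and −0.16, with none called. At *YOR019W* they were 0.91 (adjusted p = 0.0405), 0.81 (adjusted p = 0.0413), 0.47 and 0.37, the first 2 called higher in calls that held in 3 and 2 of 6 fits without 1 library.

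The genes opposite shorter transcripts were compared in turn. Of 551 tested, 147 rose and 105 fell, against 20.0% and 21.9% of all 5936 genes tested (41.9% in both directions), with a median log2 fold change of 0.11. Fold changes of shorter transcript and gene gave r = 0.86 over 658 combinations, 0.85 over 215 with the transcript wholly within the gene and 0.75 over 22 with under 10% of it within, and points share libraries and possibly reads. Both were called in 216 combinations, 131 higher, 84 lower and 1 in opposite directions. That 1 lay opposite *YJU3*, the monoglyceride lipase gene, where the transcript, with 3.67% of its length in the gene, had 867, 869.6 and 936 in *dbp2Δ* and 684, 721 and 706 in the wild-type (0.34, SE 0.11, adjusted p = 0.0445). The gene had 1292, 1423 and 1433 in *dbp2Δ* and 1642, 1942 and 1671 in the wild-type (−0.34, SE 0.11, adjusted p = 0.0448). Neither overlapped.

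The ratio of shorter transcript to gene changed in 94 of 658 combinations, 52 higher and 42 lower, a share of 14.3%, against 14.5% (7.52% higher and 6.99% lower) over all 2247 pairs of antisense transcript and gene. The median size of the change was 0.17 on the log2 scale. Without 1 library, 21 to 54 were higher and 13 to 63 lower: leaving out *dbp2Δ* libraries 1, 2 and 3 gave 23, 23 and 21 higher and 16, 20 and 13 lower, leaving out wild-type library 2 gave 26 and 24, and leaving out wild-type library 3 gave 54 and 63. In all 6 fits 32 calls held, 19 higher and 13 lower.

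**Figure D5:**
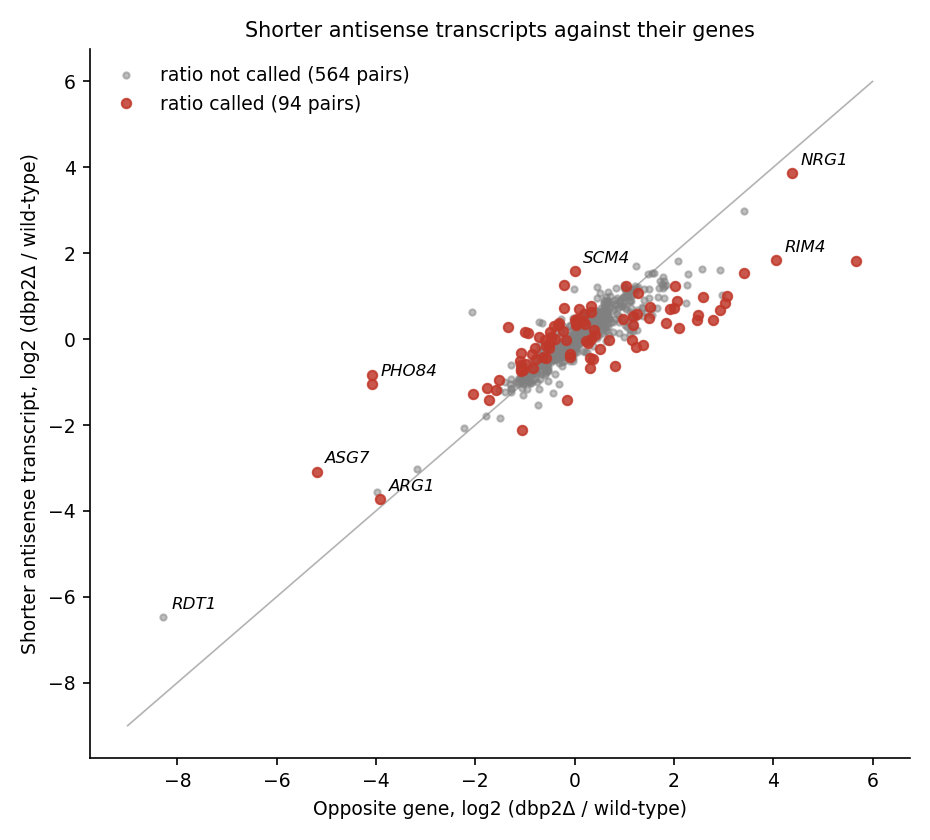
Log2 fold change (*dbp2Δ* over wild-type) of each shorter antisense transcript against that of the gene opposite, over 658 combinations; the line marks equal change and red points are the 94 combinations with a called change in ratio. *PHO84* and *ASG7* lie above the line, with genes that fell further than their antisense transcripts, and *RIM4* below it, with a gene that rose further.

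In the 5 largest called higher ratios, with both means at least 50, either the gene fell further than the transcript or the transcript rose and the gene did not pass the test. At *SCM4* the ratio rose by 1.57 (SE 0.19, adjusted p = 0.00503). Opposite *YLF2* the shorter transcript had 80.3, 86.4 and 67.0 in *dbp2Δ* and 38.0, 28.3 and 31.1 in the wild-type (1.26, SE 0.23, adjusted p = 0.00486) while the gene's log2 fold change was −0.20, and the ratio of 1.46 (adjusted p = 0.00424) held in all 6 fits. At *ASG7* the gene fell by 5.19 and the ratio was 2.05 higher (SE 0.27, adjusted p = 0.00714).

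In the 5 largest called lower ratios, with both means at least 50, the gene rose further than the transcript. The *RIM4* gene rose by 4.07 and the ratio was −2.26 (SE 0.26, adjusted p = 0.00456). *POX1*, the acyl-CoA oxidase of fatty acid breakdown, rose by 2.48, and its shorter antisense transcript had 137, 172 and 124 in *dbp2Δ* and 108, 67.7 and 117 in the wild-type (0.56, SE 0.24, adjusted p = 0.0963). The strains did not overlap for this transcript although it did not pass the test, and the ratio of −1.92 (SE 0.24, adjusted p = 0.00577) held in all 6 fits. Opposite *HXT5*, a hexose transporter, the transcript had 676, 577 and 653 in *dbp2Δ* and 237, 447 and 272 in the wild-type (1.00, SE 0.23, adjusted p = 0.0118), the gene rose by 3.06, and the ratio was −2.05 (adjusted p = 0.0425), held in 1 of 6 fits. The ratio was also lower opposite *ATO2*, a member of the ammonium and acetate transporter family (−1.85, adjusted p = 0.018), where the gene rose by 2.11, and opposite *YBR032W* (−1.60, adjusted p = 0.0217), where the gene rose by 2.58 and the transcript by 0.97. These held in 3 and 2 of 6 fits.

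*PHO84*, the high-affinity phosphate transporter, is a known case of a gene with regulated antisense transcription. Both its shorter antisense transcripts lay inside the gene and within the longest one. Both also overlap the annotated non-coding gene *YNCM0001W* on their own strand, and its reads and theirs cannot be told apart. The shorter transcript opposite *YML122C* lies on this non-coding gene as well, and it rose (0.65, SE 0.17, adjusted p = 0.0196). The first *PHO84* transcript, chrXIII:24251-24714, had 321, 294 and 356 in *dbp2Δ* and 975, 821 and 219 in the wild-type. The other, chrXIII:25063-25665, had 358, 359 and 416 in *dbp2Δ* and 1033, 765 and 224 in the wild-type. In both, wild-type libraries 1 and 2 were above and wild-type library 3 below all *dbp2Δ* libraries, so the strains overlapped. The log2 fold changes were −1.05 (SE 0.46, adjusted p = 0.0975) and −0.83 (SE 0.46, adjusted p = 0.172), and that of the longest was −0.95 (SE 0.45, adjusted p = 0.121). A 2-sided exact permutation test gave p = 0.4 for each shorter transcript, where 3 libraries against 3 cannot go below 0.1. Without wild-type library 3 the changes were −1.47 (adjusted p = 1.1e-04) and −1.25 (adjusted p = 3.8e-04).

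The *PHO84* gene had 116, 80.0 and 84.1 in *dbp2Δ* and 2566, 1973 and 183 in the wild-type, lower in every *dbp2Δ* library (log2 fold change −4.08, SE 0.87, adjusted p = 0.00922). Wild-type library 3 was again far below the other wild-type libraries, with the gene and all its antisense transcripts low together. The ratio of shorter transcript to gene was higher by 2.78 (SE 0.51, adjusted p = 0.0206) and 2.995 (SE 0.52, adjusted p = 0.0174), and each call held in 2 of 6 fits without 1 library.

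Since antisense RNAs are removed by decay enzymes, 26 genes for the exosome, its TRAMP cofactor, nonsense-mediated decay, decapping, the exonucleases Xrn1 and Rat1, the Nrd1-Nab3-Sen1 complex and other transcription termination factors were read in the same libraries. Of these, 4 rose and none fell (3 to 5 rose and none fell under other scalings), with a median log2 fold change of 0.10. Over all genes tested 20.0% rose and 21.9% fell, and neither count stands above that background. *NMD2*, which encodes the decay factor Upf2, had 3835, 4141 and 3714 in *dbp2Δ* and 2224, 1774 and 1583 in the wild-type (1.07, SE 0.15, adjusted p = 0.0024). *UPF3*, its partner, rose by 0.58 (SE 0.11), *MTR3*, an exosome subunit gene, by 0.53 (SE 0.11) and *RAI1*, the cofactor of Rat1, by 0.31 (SE 0.096). *RRP6*, the nuclear exosome exonuclease, had a log2 fold change of 0.01 (SE 0.12, adjusted p = 0.937) and *XRN1*, the cytoplasmic exonuclease, −0.38 (SE 0.16, adjusted p = 0.083).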

How the data were processed

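The authors deposited raw counts per library for annotated genes and for antisense transcripts (CUTs, SUTs and XUTs joined to the genes on the opposite strand). The submitters' notes name featureCounts, edgeR and build R64 without versions, with no aligner or strand setting (not given in the sources used here). Transcript length was end minus start plus 1, and each gene's longest transcript was set aside. The members and lists were chosen with earlier results of these data known.

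Deposited counts were fitted over all transcripts, or all genes, in R 4.3.3 with edgeR 4.0.16 (glmQLFit, glmQLFTest), strain as the only factor, after filterByExpr (minimum count 10, minimum total 15). Antisense counts used TMM library sizes of the gene counts (factors 0.934 to 1.04). Calls needed a Benjamini-Hochberg adjusted p under 0.05. Ratios were tested as the interaction of feature and strain over 12 columns, with 1 coefficient per library, adjusted over all combinations. Normalized counts are per mean effective library size. SE is the absolute log2 fold change over the root of F. The ratio fits entered both features as separately counted, so their SEs may not give the real precision where reads are shared. Motifs and last bases came from the R64 RefSeq sequence. Alternatives used DESeq2 1.42.0, edgeR's exact test and limma-voom 3.58.1, with p-values measuring the spread between the libraries. Scripts were tested on simulated data with the same spread in both strains and no shared reads, unlike the real libraries.

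Named transcripts were those opposite *PHO84* and other genes the study names, the 8 largest rises and 8 largest falls among calls with a mean of at least 50 and no overlap, the 5 largest called changes in each direction of each ratio with both means at least 50, the 3 genes with most shorter transcripts, the 4 most abundant per kb, and the longest and shortest. The transcripts opposite *YJU3*, *GAL4* and *YML122C*, the second one opposite *ZIP2*, and those named under other observations were chosen after their values were seen.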

Additional observations from a re-analysis of the deposited data

How the results depend on the processing

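Shorter transcripts called higher and lower numbered 170 and 99. They were 85 and 43 at an adjusted p under 0.01, and 271 and 169 under 0.25. Leaving out 1 library gave 108 to 221 higher and 56 to 118 lower. DESeq2 (174 and 104), edgeR's exact test (171 and 105), no TMM factor (185 and 83), upper quartile factors (173 and 82), TMM factors of the antisense table (152 and 120), no filter (170 and 99) and a minimum mean of 50 (157 and 96) stayed within 1.5 times. The replicate numbers did not pair the samples (correlations of deviations −0.07, −0.18 and −0.00), and a replicate block gave 130 and 78.

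Ratios to the longest transcript, 12 higher and 12 lower, were 0 and 1 at an adjusted p under 0.01, 42 and 33 under 0.25, 5 and 6 of 250 for shorter transcripts set against the rest of the longest's counts, 12 and 10 of 122 with only pairs sharing no base, 0 to 15 and 1 to 9 without 1 library, and 10 and 12 by limma-voom. Ratios to the gene, 52 and 42, were 16 and 13 under 0.01, 133 and 130 under 0.25, 17 and 14 of 215 with only transcripts wholly within the gene, 2 and 3 of 22 with under 10% within it, 21 to 54 and 13 to 63 without 1 library, and 53 and 32 with both means at least 50. Fits restricted to fewer combinations adjust p over fewer tests and estimate the spread anew. In the fit of all combinations, 3 higher and 3 lower ratios to the longest were among the 122 sharing no base. The ratio fits hold a term for each library, so no further block was possible.

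The first *PHO84* transcript (−1.05) passed with DESeq2 (−1.05, adjusted p = 0.041) and ranged from −1.47 to −0.68 without 1 library, and the second from −1.25 to −0.39. The *AFR1* transcript over the gene's start (−0.02) was 0.066 without a TMM factor, 0.038 with upper quartile factors, 0.0093 with a replicate block, and −0.18 to 0.21 without 1 library (0.03 without *dbp2Δ* library 3, 0.21 without wild-type library 2). The causes were not tested. Of the alternatives for single named transcripts' levels, 642 kept direction and call, 30 lost the call, 8 gained it and 5 reversed.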

Other observations

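Shorter antisense transcripts were also grouped by words in the product names of the genes opposite, as a description. Over all antisense transcripts tested, 23.4% were higher and 18.7% lower in *dbp2Δ*. Opposite metabolic enzymes (names with dehydrogenase, reductase, synthase or synthetase), 10 of 53 tested were higher (18.9%) and 16 lower (30.2%) in *dbp2Δ*, with a median log2 fold change of −0.32, and the longest transcripts opposite such enzymes had 18 of 100 higher and 34 lower (median −0.25). The genes themselves had 9 of 46 higher and 13 lower. The largest fall among these shorter transcripts was that opposite *ARG1* (−3.72), a call that held in 3 of 6 fits without 1 library. Falls also lay opposite *ADH7*, an alcohol dehydrogenase (mean normalized counts of 267.6 in *dbp2Δ* and 781 in the wild-type, log2 fold change −1.55, SE 0.13). Others lay opposite *SER33* of serine synthesis (−1.16), and *MET13* (−0.95), *MET16* (−0.78) and *MET10* (−0.53) of methionine and sulfate metabolism. The wild-type strain carries *met15Δ0*, and the part of this difference was not tested. Rises lay opposite *GDH2*, the NAD-dependent glutamate dehydrogenase (1.17), and *IDP2*, the cytosolic isocitrate dehydrogenase (1.18).

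Opposite transporters and permeases, 10 of 35 were higher and 6 lower (median 0.01), or 28.6% and 17.1%, near the shares over all antisense transcripts, and of the longest transcripts 19 of 60 were higher and 8 lower. Among the higher were *MEP2*, the ammonium permease (1.45), *DAL4*, the allantoin permease (1.03), and *SUL1*, the sulfate permease (1.02), and among the lower *FTR1*, the iron permease (−1.002). Opposite genes named for transcription or DNA binding, 6 of 12 were higher and none lower (median 0.45), of the longest transcripts 12 of 26 were higher and 2 lower, and of the genes 4 of 9 were higher. *GAL4* and *TAF2*, a TFIID subunit (0.90 and 0.77), each gave 2 of the 6. Opposite kinases, 7 of 23 were higher and 4 lower (median 0.31), of the longest transcripts 20 of 59 were higher and 11 lower, and of the genes 5 of 20 were higher and 6 lower.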
